A study of Sus scrofa with 12 samples.

Results

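The endometrial transcriptome of the pig was examined here for its potassium channel genes, taken as every gene of the deposited table whose name starts with KCN. There were 94 such genes among 20674, and all 94 matched the pig RefSeq annotation by gene identifier. They comprise the pore-forming subunits of the voltage-gated, calcium- and sodium-activated, inward rectifier and tandem-pore (K2P) channels, together with auxiliary subunits that carry the same prefix.

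Libraries were made from the endometrium of Landrace × Yorkshire sows of matched parity, after a feeding trial that began at breeding and lasted the 114 days of gestation. L − N was the basal control, with 3.73% crude fiber and no N-carbamylglutamate (NCG, a feed additive that promotes arginine synthesis). L + N received the same diet with 0.05% NCG, H − N a diet with 7.46% crude fiber in which soybean bran and beet pulp replaced part of the corn, and H + N that diet with 0.05% NCG. Each group had 3 libraries, 12 in all, and neither the labels nor the methods say whether a library is 1 sow or a pool, so the p-values measure the spread between libraries. The question was how dietary fiber, NCG and their combination altered the endometrium.

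Potassium channels let potassium leave the cell along its gradient and so set the membrane potential. In epithelia they recycle the potassium that the sodium pump brings in and sustain the driving force for chloride and fluid secretion, and in smooth muscle they oppose contraction. The endometrium has glands and a surface epithelium that secrete into the uterine lumen, vessels with contractile walls and resident immune cells, and all of these contribute RNA to a whole-tissue library. In such bulk samples, fewer cells of a type and less RNA per cell cannot be told apart.

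The total counts ranged from 14369781 to 19309724 reads per library. Levels compared between genes, most group means and some library values are given in FPKM, a count per gene length and library total. Other levels compared between libraries are given in CPM, counts per 1e+06 reads scaled by TMM factors. These factors ran from 0.941 to 1.07, and FPKM was not scaled by them. Summed markers of the epithelium lay between 1076 and 1598 CPM in L − N, 1545 and 1623 in L + N, 1624 and 2477 in H − N, and 1293 and 1439 in H + N, so that every H − N library was above every control library. L − N replicate 1 had 5547 CPM of the 8 smooth muscle markers, where the other 11 libraries had 902 to 2154. L − N replicates 2 and 3 had 3419 and 3537 CPM of the 8 macrophage markers, against 699 to 1629 in the others. The control libraries thus differed among themselves in cell type markers, and their 3 values on the first principal component of all genes (26.7% of the variance) were −22.6, −67.2 and −65.5, with the others between 1.06 and 28.2.

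Of the 94 KCN genes, 22 had a mean of at least 1 FPKM over the 12 libraries and 34 had a mean under 0.1 FPKM. The 6 highest genes held 49.8% of the KCN total, which ranged from 90.3 to 152 FPKM per library. A filter on low counts kept 61 KCN genes for testing among 15351 genes. Of the 33 that it removed, KCNA10 had 0 reads in all libraries, where a count of 0 still allows up to 3 reads per library for counting error alone. The other 32 reached at most 23 reads in a library and at most 0.193 FPKM on average (KCNE5). All counts of tested genes below are over the genes that passed this filter.

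The inward rectifiers, which pass current more easily into than out of the cell, held the largest share, 30.0% of the summed KCN FPKM. KCNJ5, a G protein-gated channel subunit, had the highest mean of all KCN genes at 11.9 FPKM, with libraries from 5.39 to 21.1. KCNJ8, the pore subunit of the ATP-sensitive channel of vascular muscle, averaged 10.3 FPKM (5.72 to 15.1), with levels between 15.2 and 40.3 CPM and groups that overlapped. KCNJ1, the ROMK channel known for potassium secretion in the kidney tubule, averaged 4.42 FPKM but ran from 0.175 to 31.3, the widest range among the 12 highest genes. Of the 15 inward rectifier genes, 11 were tested, and the 4 others were KCNJ6, KCNJ9, KCNJ10 and KCNJ13. The summed level of the 15 genes was 44.2 ± 15.8 FPKM for L − N, 33.5 ± 1.83 for L + N, 24.6 ± 9.30 for H − N and 26.8 ± 5.66 for H + N (SD, n = 3 per group). Of these sums KCNJ1 made up 12.9 ± 16.0, 3.35 ± 1.36, 0.575 ± 0.265 and 0.821 ± 0.862 FPKM, in the same order. The highest KCNJ1 value, 31.3 FPKM, was in L − N replicate 2.

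The K2P channels, which carry background potassium current at rest, held 27.4% of the KCN FPKM. KCNK1 averaged 11.1 FPKM (6.98 to 24.0), KCNK6, its close relative, 8.21 (6.63 to 10.2), and KCNK5, an alkaline-activated channel of secretory epithelia, 6.05 (2.35 to 11.9). KCNK5 had 12.2, 30.6 and 8.71 CPM in H + N. Without replicate 2 of that group the log2 fold change from L − N went from −0.69 (edgeR's adjusted p = 0.307) to −1.43 (adjusted p = 0.0386). No other fit with a library left out called KCNK5. Of the 15 K2P genes 8 were tested, and KCNK4, KCNK9, KCNK10, KCNK15, KCNK16, KCNK17 and KCNK18 were not. The spread of KCNK6 was narrow, at 6.91 ± 0.428 FPKM for L − N, 8.29 ± 1.17 for L + N, 9.24 ± 0.782 for H − N and 8.39 ± 1.62 for H + N (SD, n = 3 per group).

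Auxiliary subunits of voltage-gated channels held 15.2% of the KCN FPKM, with 10 of 13 genes tested. KCNE3, which keeps the KCNQ1 channel open in epithelia, averaged 4.15 FPKM (2.62 to 7.32), above its partner KCNQ1 at 1.29 FPKM. KCNE3 had 4.58 ± 0.547 FPKM for L − N, 3.84 ± 0.836 for L + N, 4.89 ± 2.35 for H − N and 3.30 ± 0.318 for H + N (SD, n = 3 per group). KCNAB1, a cytoplasmic beta subunit, averaged 3.49 FPKM (1.88 to 7.54), and its gene overlaps SSR3 on the opposite strand. KCNE4, an inhibitory subunit, averaged 2.99 FPKM (1.48 to 4.55). The Kv1 (Shaker) group held 9.64%, with 6 of 8 genes tested, and was led by KCNA5 at 5.97 FPKM (3.62 to 15.2) and KCNA3, the channel of lymphocytes, at 2.72 FPKM (1.52 to 3.47). The calcium- and voltage-activated BK group held 7.18%, with 3 of 5 genes tested, and was led by its pore subunit KCNMA1 at 3.04 FPKM (1.52 to 4.17), with 2.94 ± 0.681 FPKM for L − N, 3.08 ± 0.861 for L + N, 2.70 ± 1.33 for H − N and 3.46 ± 0.686 for H + N (SD, n = 3 per group).

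The other subfamilies were low, and the highest members of most were KCNH3 at 1.33 FPKM for the EAG, ERG and ELK channels (5 of 7 tested), KCNQ1 for the KCNQ channels (4 of 5 tested) and KCND2 at 1.11 FPKM for Kv4 (3 of 3 tested). KCNN3 led the small- and intermediate-conductance calcium-activated channels at 0.933 FPKM (4 of 4 tested), and the Kv2 channels had 2 of 2 genes tested. KCNT1 led the sodium-activated channels and their SLO3 relative at 0.279 FPKM (2 of 3 tested), and KCNC4 led Kv3 at 0.227 FPKM (2 of 4 tested). Of the 10 silent Kv subunits, which form channels only with other subunits, only KCNS3 was tested, at 0.247 FPKM. Neighbours in this order of means mostly had overlapping ranges, as the plot of the highest genes by library shows.

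**Figure D1:**
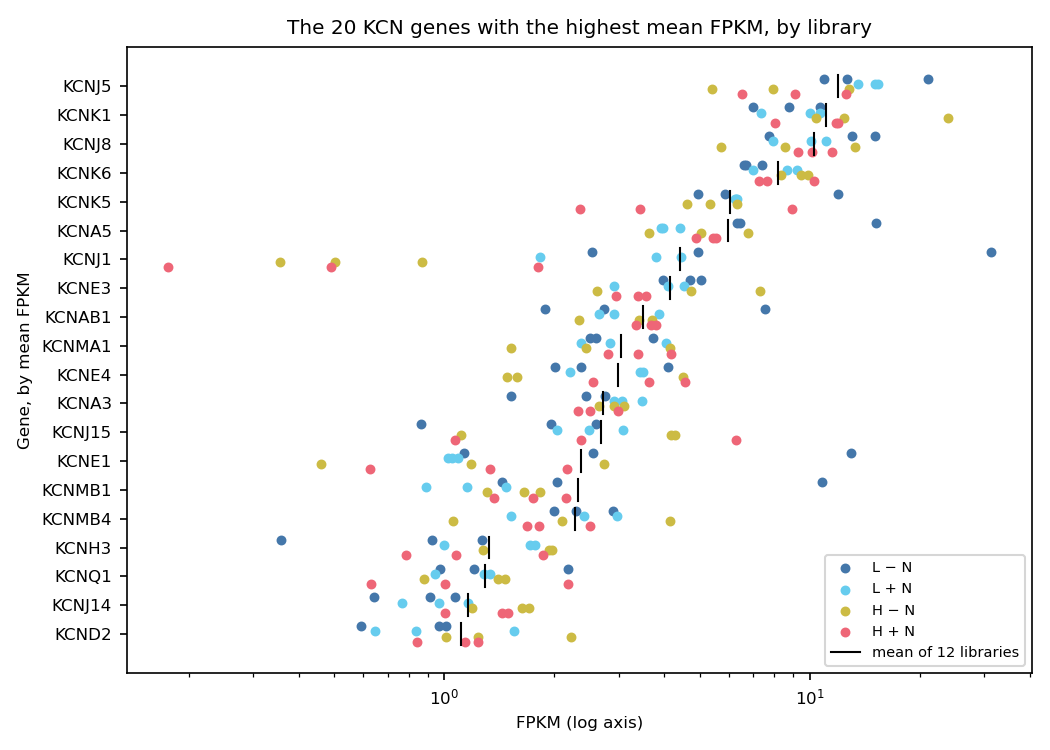
FPKM (log axis) of the 20 KCN genes with the highest mean, 1 point per library coloured by group, with a bar at the mean of the 12 libraries. KCNJ1 spreads from 0.175 to 31.3 FPKM, while KCNK6 stays between 6.63 and 10.2.

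Differential expression was called at an adjusted p-value under 0.05 and an absolute log2 fold change above 1, with the quasi-likelihood F-test of edgeR, adjusted over the 15351 genes by the Benjamini-Hochberg method. The 3 comparisons against L − N share its libraries. Against L − N, 2 of the 61 KCN genes were called in H + N, both lower (KCNJ1 and KCNA2), where 3.58% of all genes tested were called and 1.28% were called lower. In H − N 1 KCN gene was called, KCNJ1, also lower, beside 2.91% of all genes called and 2.01% called lower. In L + N 1 was called, KCNA5, lower, beside 3.99% of all genes called and 0.671% called lower. The adjusted p-value alone gave the same numbers of KCN genes.

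KCNJ1 (gene identifier 100517668; Sscrofa11.1, chromosome 9, 55779020 to 55812761, reverse strand) was lower on both high-fiber diets than in the control. Its levels were 10.3, 134 and 21.2 CPM in L − N, and 14.4, 17.3 and 7.06 CPM in L + N. They were 3.37, 2.01 and 1.52 CPM in H − N, and 7.25, 1.90 and 0.736 CPM in H + N. All 6 high-fiber libraries thus lay below all 3 control libraries, 5 of them also below all L + N libraries, and L − N replicate 2 stood far above the rest with 2137 reads, against 12 in H + N replicate 3. The log2 fold change was −4.08 in H + N (SE 1.0, edgeR's adjusted p = 0.0346) and −4.56 in H − N (SE 1.03, adjusted p = 0.0342).

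In L + N the log2 fold change of KCNJ1 from L − N was −2.09 (SE 0.904, edgeR's adjusted p = 0.160). The mean effect of fiber over both NCG levels was −3.27 (SE 0.696), with an adjusted p of 0.0678 by edgeR and of 0.000638 by DESeq2. Without L − N replicate 2 the log2 fold changes were −2.27 in H + N (edgeR's adjusted p = 0.112) and −2.76 in H − N (adjusted p = 0.0965). With each of the 12 libraries left out in turn the call held in 5 fits for either comparison, and it was lost also without L − N replicate 3 (adjusted p = 0.0842 in H + N and 0.0949 in H − N), without L + N replicate 1 or 2 (adjusted p from 0.0502 to 0.0516) and without any 1 library of the high-fiber group compared. L − N replicates 2 and 3, the libraries with the most KCNJ1, were also those with the most macrophage markers (3419 and 3537 CPM), and the part of these cells in the result was not tested.

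KCNJ5 lies 24.0 kb from KCNJ1 on chromosome 9. Its levels were 42.4, 26.7 and 23.2 CPM for L − N, 28.3, 29.6 and 26.0 for L + N, 24.6, 15.8 and 11.4 for H − N, and 18.1, 24.1 and 13.5 for H + N. High-fiber libraries were mostly below low-fiber ones, with overlap. The mean effect of fiber was a log2 fold change of −0.71 (SE 0.217), which did not pass in edgeR (adjusted p = 0.124).

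KCNA2 (gene identifier 397292; chromosome 4, 109534923 to 109570172), a delayed rectifier of the Kv1 group best known from axons, was lower in H + N than in L − N. Its levels were 5.79, 43.0 and 15.6 CPM for L − N, 5.53, 7.45 and 8.70 for L + N, 6.32, 4.79 and 5.59 for H − N, and 6.06, 4.02 and 3.92 for H + N. L − N replicates 2 and 3 were the highest of all libraries, whereas L − N replicate 1 lay among the other groups, so the groups overlapped. The log2 fold change was −2.20 in H + N (SE 0.559, edgeR's adjusted p = 0.0388), −1.94 in H − N (SE 0.553, adjusted p = 0.0646) and −1.57 in L + N (SE 0.544, adjusted p = 0.0903).

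The call of KCNA2 in H + N held in 3 of the 12 fits that left out 1 library, namely when L − N replicate 1 or replicate 1 or 3 of H − N was the one removed. Without L − N replicate 2 the log2 fold change was −1.19 (edgeR's adjusted p = 0.113), and without L − N replicate 1 it was −2.65 (adjusted p = 0.00389). Libraries high in KCNA2 were those high in macrophage markers, of which 3 of 8 were called in H + N and 6 of 8 in H − N against L − N. The summed markers of neurons and glia were also higher in the control, at 90.0 to 115 CPM against 27.9 to 64.1 in the 9 other libraries. The part of these cells in the KCNA2 result was not tested. KCNA3, 36.4 kb away on the same chromosome, had 2.23 ± 0.641 FPKM for L − N, 3.15 ± 0.290 for L + N, 2.89 ± 0.228 for H − N and 2.60 ± 0.342 for H + N (SD, n = 3 per group).

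KCNA5 (gene identifier 474166; chromosome 5, 65439336 to 65442207, reverse strand), a voltage-gated channel of heart and vascular muscle, was lower with NCG on the low-fiber diet. It stood at 43.9, 19.7 and 19.3 CPM for L − N, 10.5, 12.3 and 11.0 for L + N, 10, 14.4 and 20.6 for H − N, and 15.6, 13.5 and 16.6 for H + N. All L + N and all H + N libraries were below all control libraries, and the L + N libraries were the tightest group. The log2 fold change was −1.29 in L + N (SE 0.333, edgeR's adjusted p = 0.0350), −0.86 in H + N (SE 0.329, adjusted p = 0.120) and −0.88 in H − N (SE 0.330, adjusted p = 0.133). H + N lay above L + N in all libraries, with a log2 fold change of 0.43 (SE 0.331, edgeR's adjusted p = 0.917). The effect of NCG differed between the high- and the low-fiber diet by 1.32 in log2 (SE 0.467, edgeR's adjusted p = 0.307).

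Without L − N replicate 1 the KCNA5 value in L + N was −0.79 (edgeR's adjusted p = 0.0671), and the call held in 6 of the 12 fits with 1 library left out. It was lost also when L − N replicate 3, replicate 1 of H + N or any 1 L + N library was removed. L − N replicate 1 is the library with the highest smooth muscle markers, and the part of muscle in the KCNA5 result was not tested. In L − N replicates 2 and 3, too, both KCNA5 and the summed smooth muscle markers (1712 and 2154 CPM) were above every L + N library (1134 to 1365 CPM of the markers). Summed pericyte markers were also higher in every L − N library (1388 to 1613 CPM) than in every L + N library (927 to 1112 CPM). So were the markers of endothelium (1113 to 1676 against 799 to 981 CPM) and of neurons and glia (90.0 to 115 against 45.1 to 53.2 CPM). The part of these cells was not tested either.

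**Figure D2:**
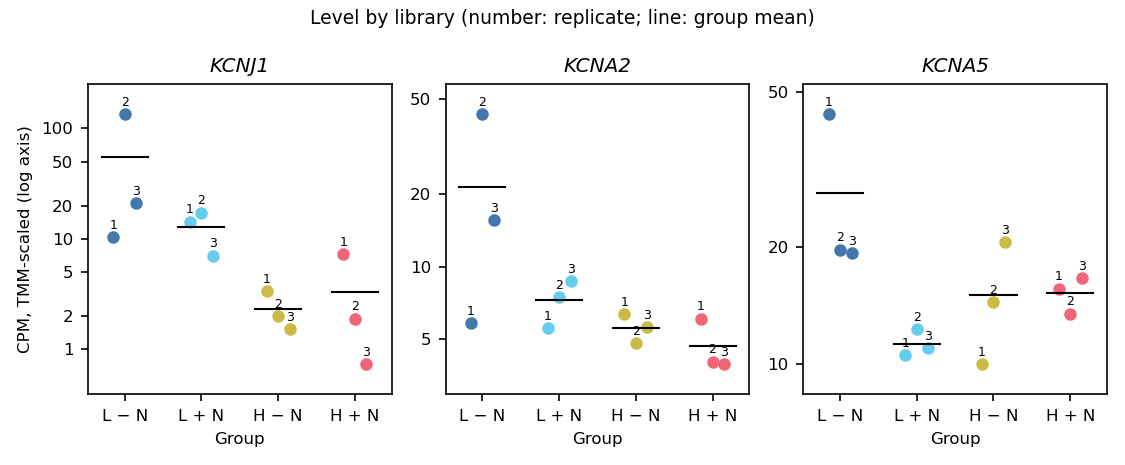
CPM (log axis) of KCNJ1, KCNA2 and KCNA5 in each library, by group, with the replicate number above each point and a line at the group mean. L − N replicate 2 is highest for KCNJ1 (134 CPM) and KCNA2 (43.0 CPM), and L − N replicate 1 for KCNA5 (43.9 CPM).

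The other KCN genes tested did not pass in these comparisons, and the medians of the 61 log2 fold changes were −0.11 in H + N, −0.10 in H − N and −0.03 in L + N, beside 0.02, 0.03 and −0.02 over all genes. An unadjusted p under 0.05 was found for 11 of the 61 KCN genes (3 higher, 8 lower) in H + N. It was found for 16 (4 higher, 12 lower) in H − N and 9 (2 higher, 7 lower) in L + N. Over all genes the shares were 27.5%, 24.4% and 27.8%. The KCN share was thus smaller than that of all genes in H + N and L + N, and larger in H − N. Of all genes at this p, 2237 were higher and 1978 lower in H + N. In H − N 1728 were higher and 2018 lower, and in L + N 2153 and 2107. DESeq2, run on all 94, called 4 in H + N (KCNA2, KCNIP4, KCNJ1 and KCNK13), beside 4.84% of all genes. It called 7 in H − N (KCNA2, KCNE5, KCNIP1, KCNJ1, KCNK12, KCNK13 and KCNMB1), beside 4.54%, and 6 in L + N (KCNA1, KCNA2, KCNA5, KCNE1, KCNMB1 and KCNN2), beside 4.36%. KCNA2 was thus called by DESeq2 in all 3 comparisons, and by edgeR in H + N only.

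Among the K2P genes, KCNK13, a halothane-inhibited channel found in microglia, had 3.76, 5.71 and 5.24 CPM for L − N, 3.83, 2.68 and 1.96 for L + N, 1.61, 2.84 and 1.79 for H − N, and 1.19, 3.20 and 1.47 for H + N. All high-fiber libraries lay below all control libraries. KCNK13 was highest in L − N replicates 2 and 3, the libraries with the most macrophage markers (3419 and 3537 CPM). The part of these cells in the KCNK13 values was not tested. The log2 fold change of KCNK13 was −1.32 in H + N (SE 0.427, edgeR's adjusted p = 0.0755) and −1.24 in H − N (SE 0.427, adjusted p = 0.109). KCNK12, its closest relative, went the other way in level, with 1.69 to 2.23 CPM for L − N, 4.17 to 6.67 for L + N and 5.59 to 17.2 for H − N, but 9.62, 0.435 and 3.37 for H + N. Its log2 fold change in H − N was 2.25 (SE 0.796, edgeR's adjusted p = 0.116). KCNK1 was highest in H − N at 15.6 ± 7.34 FPKM (SD, n = 3), a mean carried by replicate 3 at 24.0 FPKM, and had a log2 fold change of 0.79 from L − N (edgeR's adjusted p = 0.160).

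In KCN genes whose groups did not overlap, H + N was above L − N for 3 of 61 and below for 9, where 15.2% and 12.7% of all genes were so. The 3 were KCNA4, KCNIP4 and KCNK7, and the 9 were KCNA5, KCNE3, KCNH8, KCNJ1, KCNJ4, KCNK13, KCNN1, KCNN2 and KCNS3. For H − N 4 were above (KCNC4, KCNJ14, KCNK6 and KCNK12) and 5 below, beside 12.8% and 12.7% of all genes. For L + N 5 were above and 5 below, beside 18% and 17.2%. KCNJ1, KCNJ4 and KCNK13 were below the control on both high-fiber diets. KCNN2, a small-conductance calcium-activated channel, was below the control in all 3 comparisons. It had 2.36, 2.38 and 2.62 CPM in L − N and 0.916 to 2.23 in the 9 others. These comparisons share the control libraries, and the share of all genes below in several of them at once was not counted. KCNN2 had a log2 fold change of −1.16 in L + N (SE 0.400, edgeR's adjusted p = 0.0902).

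**Figure D3:**
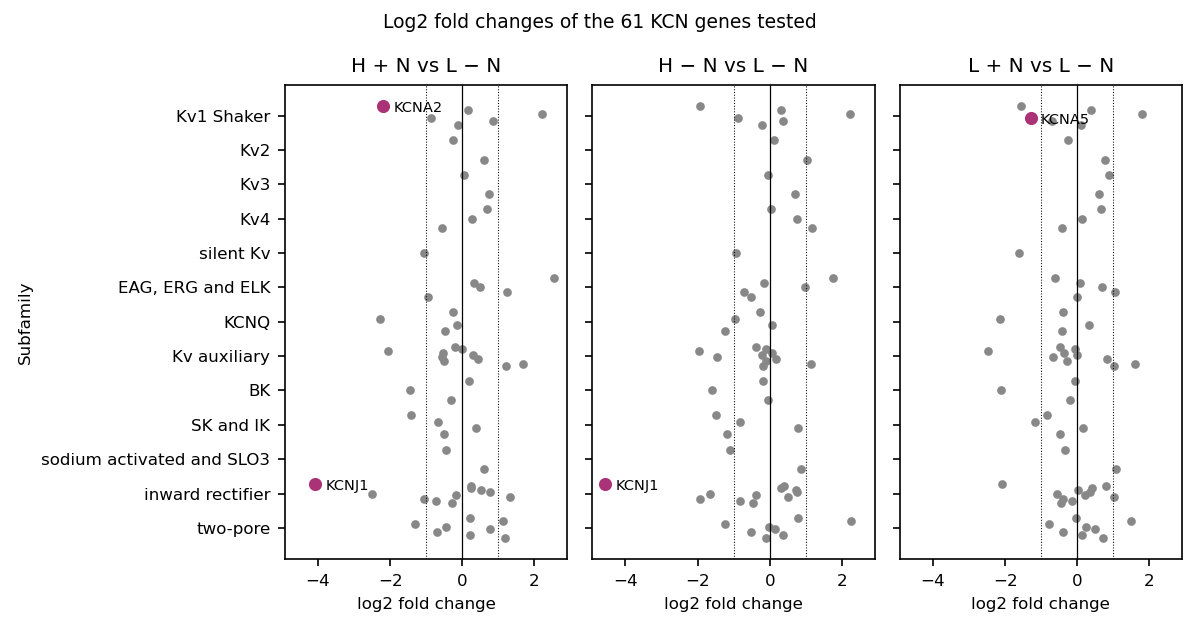
Log2 fold change (x axis) of the 61 KCN genes tested in H + N, H − N and L + N against L − N, 1 point per gene in rows by subfamily, with dotted lines at −1 and 1 and called genes enlarged and named. The called genes are KCNJ1 (−4.08 and −4.56), KCNA2 (−2.20) and KCNA5 (−1.29), all lower.

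Between the diets other than the control, edgeR called 0 KCN genes. For NCG on the high-fiber diet (H + N against H − N) 0% of all genes were called, 2 KCN genes had an unadjusted p under 0.05 beside 8.67% of all genes, and DESeq2 called 0 KCN genes beside 0.121%. The 2 were KCNK7, with a log2 fold change of 1.27 (SE 0.451, edgeR's adjusted p = 0.487), and KCND3, a Kv4 channel, with −1.73 (SE 0.603, adjusted p = 0.478). For fiber with NCG (H + N against L + N) 0% of all genes were called, 2 KCN genes, KCNA6 and KCNH1, had an unadjusted p under 0.05 beside 4.68% of all genes, and DESeq2 called 0 KCN genes beside 0.00967%. The value of KCNH1, a channel of the EAG group, was 3.17 (SE 1.25, edgeR's adjusted p = 0.910) and rested on H + N replicate 3 at 10.7 CPM, without which it was 0.37. Groups did not overlap for 5 KCN genes in H + N against H − N (4 higher, 1 lower, beside 7.82% and 5.13% of all genes) and for 3 in H + N against L + N (2 higher, 1 lower, beside 5.86% and 5.09%).

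For fiber over both NCG levels, edgeR called 0 KCN genes beside 0.0261% of all genes. At an unadjusted p under 0.05 were 11 (4 higher, 7 lower), beside 19.5% of all genes. DESeq2 called KCNA2, KCNH1 and KCNJ1, beside 1.48% of all genes. By edgeR the log2 fold change of KCNH1 for fiber fell to 1.07 without H + N replicate 3. It was at most 2.72 with another library left out. For NCG over both fiber levels edgeR called 0 KCN genes beside 1.8% of all genes, 10 had an unadjusted p under 0.05 (6 higher, 4 lower) beside 23.6%, and DESeq2 called only KCNA1, a gene below the filter on low counts, beside 1.75% of all genes. For the interaction 0 KCN genes and 0% of all genes were called by edgeR, 5 KCN genes had an unadjusted p under 0.05 (4 positive, 1 negative) beside 12.8% of all genes, and DESeq2 called 0 KCN genes beside 0.905%. The KCNJ1 interaction was 2.58 in log2 (edgeR's adjusted p = 0.450).

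L − N replicate 1 held the highest CPM of the 12 libraries for 14 of the 61 KCN genes (23.0%), beside 9.51% of all genes. They included KCNA5, KCNAB1, KCNE1, KCNIP3, KCNJ4, KCNJ5, KCNK2, KCNK5, KCNMB1, KCNN4, KCNQ1 and KCNS3. L − N replicate 2 was highest for 6 (9.84%, beside 12.6% of all genes). For these 14 genes, a fold change from the control includes the highest value of the gene on the control side.

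**Figure D4:**
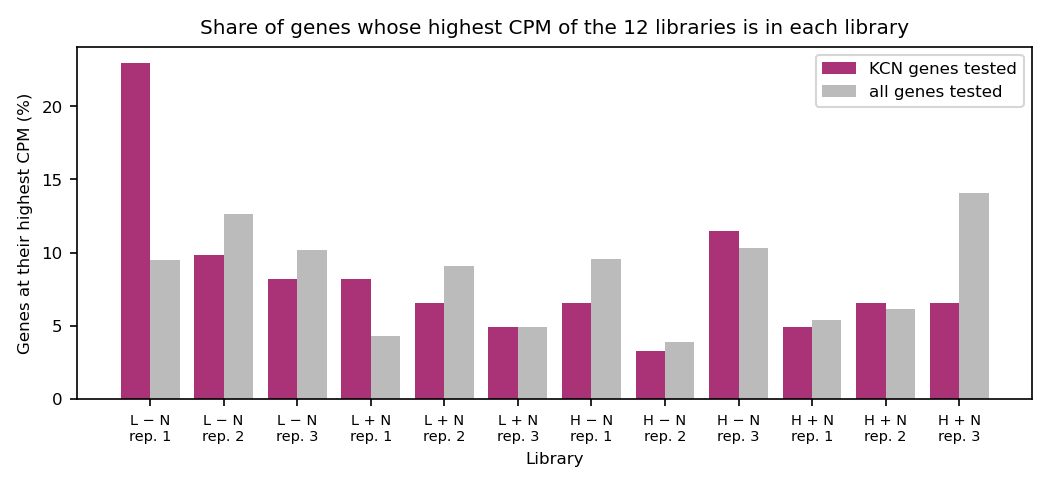
Percent of the 61 KCN genes tested and of all 15351 genes tested (bars from 0) whose highest CPM of the 12 libraries falls in each library. L − N replicate 1 holds 23.0% of the KCN genes and 9.51% of all genes.

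KCNMB1, the beta subunit that raises the calcium sensitivity of BK channels in smooth muscle, showed this most. It had 43.8, 6.14 and 8.73 CPM for L − N, 4.37, 5.76 and 3.47 for L + N, 7.10, 5.27 and 7.04 for H − N, and 8.70, 5.32 and 7.36 for H + N. One control library was thus far above the 11 others. The other control libraries overlapped H − N and H + N but lay above every L + N library. The log2 fold change in L + N was −2.11 (SE 0.614, edgeR's adjusted p = 0.0530), and −0.71 without L − N replicate 1. KCNMB1 overlaps KCNIP1 on the opposite strand, and since the strand used in counting is not stated, their reads may not be separable. KCNMA1, the BK pore subunit, did not share the pattern, with 37.8 CPM in L − N replicate 1 and 24.1 to 62.6 CPM in all libraries.

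KCNE1, the subunit that slows KCNQ1, had 12.2, 1.13 and 2.55 CPM in L − N and 0.415 to 2.57 CPM in the 9 other libraries. Every L + N library (mean 0.945 CPM, SD 0.0316) was below every control library. Its log2 fold change in L + N was −2.48 (SE 0.858, edgeR's adjusted p = 0.0903), and −0.95 without L − N replicate 1. KCNAB1 had 56.4, 14.9 and 21.7 CPM in L − N, and 16.7 to 29.4 in the others. The 8 smooth muscle markers summed to 5547, 1712 and 2154 CPM for L − N, 1134 to 1365 for L + N, 902 to 1689 for H − N and 1572 to 1649 for H + N, and their part in these differences was not tested.

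**Figure D5:**
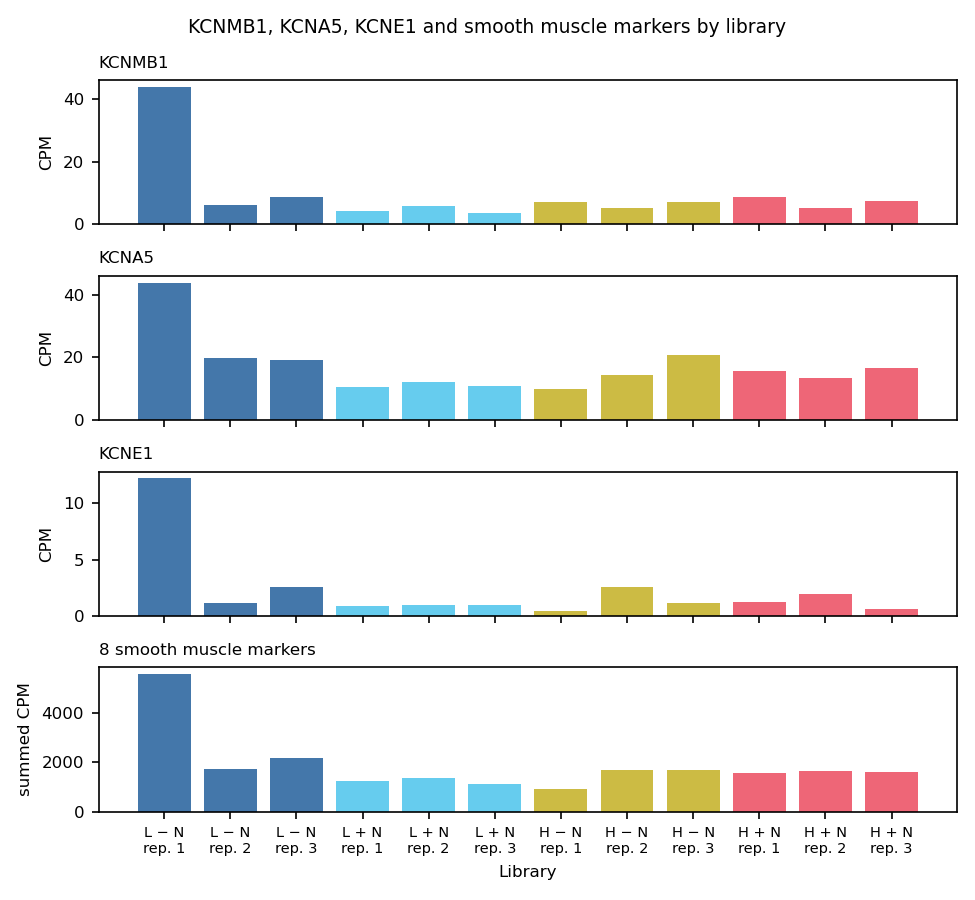
CPM of KCNMB1, KCNA5 and KCNE1 and summed CPM of the 8 smooth muscle markers in each of the 12 libraries (bars from 0, coloured by group). L − N replicate 1 is the highest in all 4 panels, with 43.8, 43.9, 12.2 and 5547 CPM.

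The KCN genes varied more between replicates than most genes and were lower in level. The within-group SD of log2 CPM had a median of 0.602 over the 61 KCN genes and 0.276 over all genes tested, and their median CPM was 3.31 and 26.7. The SD was highest for KCNQ3 (1.68), KCNH1 (1.5) and KCNJ1 (1.31).

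The pumps, cotransporters, kinases and partner subunits that work with potassium channels were taken from lists of 47 genes, of which 45 were in the table and 37 were tested. In H + N against L − N 2 were called, both lower, in H − N 3, all higher, and in L + N 2, both higher. For NCG over both fiber levels 2 were called, both higher. The shares of all genes called were 3.58%, 2.91%, 3.99% and 1.8%. Of all genes called, 197 of 549 were lower in H + N and 137 of 446 were higher in H − N. In L + N 510 of 613 were higher, and for NCG 256 of 276. In the 4 other comparisons edgeR called 0. There, an unadjusted p under 0.05 was found for 4 genes in H + N against H − N, 1 in H + N against L + N, 9 for fiber over both NCG levels and 7 for the interaction, beside 8.67%, 4.68%, 19.5% and 12.8% of all genes. DESeq2 called SLC12A2 in the interaction and none in the others.

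The sodium pump loads cells with the potassium that the channels release. Its beta subunit ATP1B1 rose from 73.0 ± 19.5 FPKM in L − N to 195 ± 16.1 in H − N (SD, n = 3 per group), a log2 fold change of 1.36 (SE 0.245, edgeR's adjusted p = 0.0199). ATP1B1 was at 109 ± 6.69 FPKM in L + N and 139 ± 42.0 in H + N. In H + N, too, edgeR's adjusted p against L − N was under 0.05, but without a call. FXYD5, a regulatory subunit of the pump, fell from 34.5 ± 2.70 FPKM in L − N to 17.7 ± 1.70 in H + N (SD, n = 3 per group), a log2 fold change of −1.02 (SE 0.207, edgeR's adjusted p = 0.0225). FXYD5 was low also in H − N (19.0 ± 0.923 FPKM) and L + N (20.6 ± 7.48), with edgeR's adjusted p under 0.05 in both but no call. With 1 library left out in turn, the call held in 10 of 12 fits for ATP1B1 and in 9 for FXYD5.

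SLC12A2, the cotransporter that brings sodium, potassium and chloride into secretory epithelia, rose from 11.8 ± 2.04 FPKM in L − N to 26.0 ± 7.37 in H − N (SD, n = 3 per group), with a log2 fold change of 1.10 (SE 0.237, edgeR's adjusted p = 0.0300). The summed epithelial markers were higher too in every H − N library (1624 to 2477 CPM) than in every control library (1076 to 1598 CPM), with 0 of 10 called. So were the summed stroma markers (28924 to 50720 against 22948 to 27602 CPM). Those of macrophages, pericytes, smooth muscle, neurons and glia, and red blood cells were lower in every H − N library. The part of all these cells in the values of ATP1B1 and SLC12A2 was not tested. SLC12A1, its kidney relative, rose from low levels with NCG. It had 0.0288, 0.0806 and 0.0861 FPKM for L − N, 0.247, 0.561 and 0.232 for L + N, 0.0490, 0.0949 and 0.0741 for H − N, and 0.180, 0.244 and 0.174 for H + N. Every NCG library was above every library without it, and the effect over both fiber levels was 1.84 in log2 (SE 0.382, edgeR's adjusted p = 0.0170), called in all 12 fits with 1 library left out.

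The kinase WNK3, which acts on these cotransporters, had a log2 fold change of 1.17 in L + N (SE 0.296, edgeR's adjusted p = 0.0331). For NCG over both fiber levels edgeR's adjusted p of WNK3 was also under 0.05, without a call. HCN2, a hyperpolarization-activated cation channel, fell from 1.80 ± 0.162 FPKM in L − N to 0.868 ± 0.138 in H + N (SD, n = 3 per group; log2 fold change −1.11, SE 0.258, edgeR's adjusted p = 0.0307). HCN2 was at 1.18 ± 0.266 FPKM in L + N. It was at 0.934 ± 0.206 FPKM in H − N, where edgeR's adjusted p was under 0.05 but without a call. DPP6, which brings Kv4 channels to the cell surface, was called for NCG (log2 fold change 2.98, SE 0.810, edgeR's adjusted p = 0.0489), held the call in 2 of 12 fits with 1 library left out, and ranged from 0.0454 to 2.04 FPKM within H + N alone. With smaller changes, WNK1 had a log2 fold change of −0.44 in H − N (edgeR's adjusted p = 0.0311) and TMEM38A, an intracellular potassium channel, −0.94 in L + N (adjusted p = 0.0434). The calls of SLC12A2, HCN2 and WNK3 held in 8, 8 and 7 of the 12 fits with 1 library left out. ABCC9, the sulfonylurea receptor that pairs with KCNJ8, averaged 8.15 FPKM, against 0.0999 FPKM for ABCC8.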

How the data were processed

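RNA of sow endometrium was measured in 12 libraries of 4 groups, assigned by their titles. The authors deposited, per gene and library, a read count without normalization and an FPKM value, which equals that count per gene length and counted total to within 1.91e-05 percent. The submitters' processing notes list fastp 0.22.0, HISAT2 2.1.0, HTSeq 0.9.1 and Sscrofa11.1, and the counting strand is not stated. In edgeR 4.0.16, filterByExpr dropped genes of low count, TMM set the scale, and 1 quasi-likelihood fit of the 12 libraries took a mean for each group (R 4.3.3; 8 residual degrees of freedom; biological coefficient of variation 0.269). SE values are the log2 fold change divided by the root of F. DESeq2 1.42.0, RLE scaling, no filter, a replicate block, fits of 2 groups and each library left out were the alternatives. The steps were tested on simulated data. Replicates differed by a chi-square of 23.3 to 99.8 per gene, so none was a duplicate.

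Values are given by library for KCN genes with an adjusted p under 0.05 and KCNJ1, and by mean for the 12 highest by FPKM, the highest of each subfamily and partner genes with an adjusted p under 0.05. Others named in the text were chosen after their values were seen. The KCN genes, partner lists and marker lists were chosen with earlier results of these data known. Depth limits counting precision, and p-values rest on 3 libraries per group. The thresholds of the call are those of the study's methods. No sequences were used here, and values of some genes are not reported here.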

Additional observations from a re-analysis of the deposited data

How the results depend on the processing

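RLE scaling and omission of the low-count filter left the number of KCN genes called the same in all 8 comparisons. For H + N against L − N, 2 genes were called, 4 by DESeq2, 1 with the replicate block, 0 when only the 2 groups were fitted, and 0 to 4 with 1 library left out. For H − N against L − N, 1 gene was called, 7 by DESeq2, 0 with 2 groups only and 0 to 4 with 1 library left out. For L + N against L − N, 1 was called, 6 by DESeq2, 0 with the block, 2 with 2 groups only (KCNK12 and KCNS3, while KCNA5 no longer passed, edgeR's adjusted p = 0.0651) and 0 to 3 with 1 library left out. The calls for fiber over both NCG levels went from 0 to 3 by DESeq2 and 0 to 3 with 1 library left out, and for NCG from 0 to 1 and 0 to 2. In H + N against H − N, H + N against L + N and the interaction, 0 KCN genes were called under every alternative. Of the fits with 1 library left out, those without L − N replicate 1 gave the most calls, among KCN genes and, against L − N and for fiber, among all genes. For fiber they called KCNA2, KCNJ1 and KCNJ16 (log2 fold changes −1.51, −3.52 and −2.05), beside 2.13% of all genes, and all genes called were 6.09% in H + N and 7.19% in H − N against L − N. The cause of these shifts was not tested.

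The replicate numbers showed no clear pairing of the libraries: same-numbered libraries of different groups had correlations of −0.322 to 0.283 over 18 pairs, and 3 of 12 correlated best with their own number. With 3 libraries per group these values cannot exclude a pairing. Under the block KCNA2 in H + N had an adjusted p of 0.0793 and KCNA5 in L + N of 0.0662 (edgeR). Some values changed sign with 1 library left out. The log2 fold change of KCNA5 in H + N against H − N ranged from −0.20 (H − N replicate 1 left out) to 0.32, and was −0.0044 leaving out H − N replicate 2, −0.0027 leaving out H + N replicate 1 and −0.045 leaving out H + N replicate 3. KCNA5 for fiber ranged from −0.37 to 0.029 (L − N replicate 1 left out). KCNJ1 in H + N against H − N ranged from −0.81 (H + N replicate 1 left out) to 0.96, and KCNJ1 for NCG from −1.44 to 0.10 (L − N replicate 2 left out). Over 1529 values of single genes under the alternatives, 1401 kept direction and side of the threshold, 34 newly passed, 87 no longer passed and 7 changed sign.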
